A study of Mus musculus with 6 samples.

Results

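A set of 10 genes of the cytosolic heat shock system were examined in the retina after optic nerve crush (ONC): Hspb1, Hspb8, Hspa1a, Hspa1b, Hspa8, Hsph1, Dnajb1, Hsp90aa1, Hsf1 and Bag3. They were taken by symbol from the 35485 genes of the deposited tables, and 10 of 10 were found and passed the filter on low values, as did 13670 genes in all. The tissue was the whole retina of wild-type C57BL/6 mice aged 12 weeks, taken 2 days after surgery. In the ONC group the optic nerve was crushed for 10 s at 2 mm behind the eye, and in the sham group the nerve was exposed in the same way but not crushed. Each group had 3 samples, and each sample pooled 6 retinas, so the spread between samples is the spread between pools and not between single animals.

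Heat shock proteins are chaperones, which bind unfolded or misfolded proteins. HSF1 is the transcription factor that switches on many of their genes when unfolded protein accumulates. HSP70 proteins (here Hspa1a, Hspa1b and Hspa8) fold clients in a cycle that uses ATP, HSP40 proteins such as Dnajb1 bring clients to them, HSP110 (Hsph1) exchanges their nucleotide, and HSP90 (Hsp90aa1) takes over clients that are nearly folded. The small heat shock proteins (Hspb1, Hspb8) hold unfolded clients without ATP, and Bag3 joins HSPB8 to HSP70 and leads clients towards autophagy.

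Of the 10 genes, only the small heat shock gene Hspb8 passed the threshold after ONC, 1.5045-fold upward. That call was lost when any sample other than ONC replicate 1 was left out. Hspb1, the other small heat shock gene, had a larger fold change of 1.66 that fell just short of the threshold. The stress-inducible HSP70 genes Hspa1a and Hspa1b, the constitutive HSP70 gene Hspa8, Hsph1, Dnajb1, Hsp90aa1, Hsf1 and Bag3 had fold changes between 0.987 and 1.10, none past the threshold. The paper describes retinal ganglion cells as the main cells affected by ONC and as a very small share of the retina. A change confined to those cells could be missed in whole retina. A gene is called here when its adjusted p is under 0.1 (edgeR's quasi-likelihood test with Benjamini-Hochberg adjustment over 13670 genes), and a differentially expressed gene (DEG) also has a fold change over 1.5. In the upward direction 1 of 10 genes was called, beside 2.38% of all genes tested, and the same 1 of 10 was a DEG, beside 0.827%. In the downward direction 0 of 10 were called, beside 3.72%, and 0 of 10 were DEGs, beside 0.834%. At an unadjusted p under 0.05 in edgeR, 2 of 10 were higher (Hspb1 and Hspb8) and 0 lower, beside 7.73% and 8.99% of all genes. DESeq2 called 2 higher after adjustment (Hspb1 and Hspb8), beside 2.59% of all genes. With limma 3 were called higher (Hspb1, Hspb8 and Hsp90aa1), beside 7.15%. Both called 0 lower.

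The sham libraries held 17343945 to 18349331 exon reads and the ONC libraries 20019818 to 20358008. Photoreceptor markers marked the tissue as retina, with a summed level of 20037 to 20845 RPKM (exon reads scaled by exon length and by the reads on all genes) in sham and 21924 to 23362 RPKM in ONC. Ganglion cell markers had a summed level of 432 to 451 RPKM in sham and 319.9 to 337 RPKM in ONC. Of them 8 of 9 were called lower, beside 3.72% of all genes. The remaining marker, the glutamate transporter gene Slc17a6, rose (log2 fold change 0.26, adjusted p = 0.0525, edgeR). In such bulk samples, fewer cells of a type and less RNA per cell cannot be told apart. The sum of 8 lens markers was 5.67 and 7.55 RPKM in sham replicates 2 and 3, 47.4 RPKM in sham replicate 1 and 43.8 to 59.7 RPKM in ONC, so sham replicate 1 stood with the ONC samples for lens genes. All 4 tested blood markers had lower values in ONC, and 2 of them were called lower, beside 3.72% of all genes. The summed blood markers were highest in sham replicate 1 (258 RPKM, against 77.0 to 131 RPKM in the others).

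In the sham retina the 10 levels spanned a range of 602 to 1.69 RPKM. Hsp90aa1 was at 602 ± 32.0 RPKM (SD, n = 3) and Hspa8 at 499 ± 18.4 RPKM, above 99.78% and 99.71% of the genes tested. After a gap of 23.9-fold came Dnajb1 at 20.9 ± 1.57 RPKM, Hspa1a at 20.9 ± 0.671 RPKM, Hspa1b at 19.7 ± 1.03 RPKM and Hsph1 at 18.5 ± 0.372 RPKM. The ranges of Dnajb1, Hspa1a and Hspa1b overlapped, so no order can be given among those neighbours, while Hsph1 lay just under Hspa1b, at most 18.9 RPKM against at least 18.98 RPKM. Hsf1 followed at 12.1 ± 0.695 RPKM, then Hspb1 at 3.40 ± 1.15 RPKM and Hspb8 at 3.22 ± 0.440 RPKM with overlapping ranges. Bag3 was lowest at 1.69 ± 0.199 RPKM, above 20.56% of the genes tested. In ONC the same order held except that Hspa1a stood above Dnajb1, with overlapping ranges, and that Hspa1b and Hsph1 overlapped.

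Hsp90aa1 and Hspa8 together took 91.0% to 91.7% of the exon reads of the 10 genes in each sample. The 10 genes took 0.406% to 0.408% of all exon reads in the 3 sham samples and 0.440%, 0.453% and 0.408% in ONC replicates 1, 2 and 3. ONC replicate 3 was thus at the sham level and the other ONC samples above it.

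**Figure D1:**
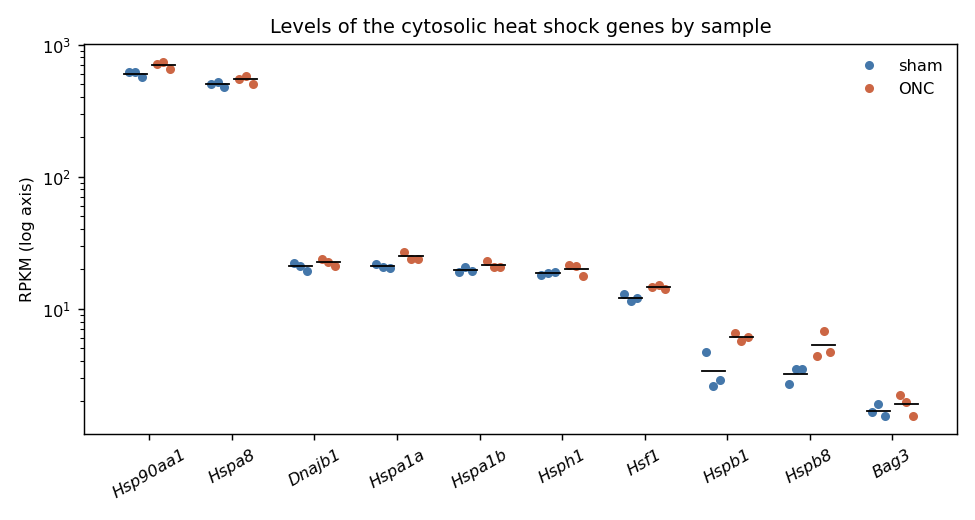
RPKM of the 10 genes in each sample, on a log axis, with genes ordered by their mean in sham; blue points are the 3 sham and orange points the 3 ONC samples (replicates 1 to 3 from left to right), and black lines are group means. Hsp90aa1 and Hspa8 sit near 602 and 499 RPKM, far above the other genes, and the groups are separated most for Hspb1 and Hspb8.

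Values in RPKM need care in this series. The deposited RPKM divide by all reads on genes, introns included, and on that scale 10 of 10 genes had a higher mean in ONC, but so did 76.6% of all genes tested. The median log2 fold change of all genes was 0.13 with that scaling and 0.01 with the trimmed mean of M-values (TMM) scaling of exon reads. With TMM, 8 of 10 genes had a positive log2 fold change, beside 52.3% of all genes. Changes below are log2 fold changes of ONC over sham with TMM, and RPKM are given as levels.

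Heat shock elements were looked for upstream of the genes, since HSF1 binds repeats of the unit GAA that alternate in direction 2 bases apart. The letters searched were GAANNTTC and TTCNNGAA, each of which reads the same on both strands, in RefSeq windows of 250 bases before to 50 bases after the start site (GRCm38.p6). Windows were at hand for 7 of 10 genes, not for Hspa8, Hsp90aa1 and Hsf1. Of these 7, 6 held a match, Dnajb1 being the one without, beside 13.9% of 9860 tested genes with a window. The matches are shown because genes with them include both the one called and several that were not. Hsph1 has 2 windows with different start sites. The position given for its first repeat is from 1 of these start sites, and from the other it is -54 to -47. Its 3-unit repeat lies past both start sites. Capitals mark the repeat, on the strand of the gene:
Hspb1, chr5:135887794-135887817, plus strand, repeat at -117 to -110 from the start site: caacaagaGAAGTTTCcagatggg
Hspb1, chr5:135887814-135887837, plus strand, repeat at -97 to -90: tgggggcaGAACCTTCctggcccc
Hspb8, chr5:116422847-116422870, minus strand, repeat 2 to 9 bases past the start: agccaggaGAAGTTTCtaggctcg
Hspa1a, chr17:34972245-34972268, minus strand, repeat at -104 to -97: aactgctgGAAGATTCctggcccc
Hspa1b, chr17:34959327-34959350, minus strand, repeat at -104 to -97: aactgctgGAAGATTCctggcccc
Hsph1, chr5:149636354-149636377, minus strand, repeat at -33 to -26: tagaatctTTCTCGAAggctcgag
Hsph1, chr5:149636280-149636308, minus strand, 3 units in a row, past the start: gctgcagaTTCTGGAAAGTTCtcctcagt
Bag3, chr7:128523617-128523632, plus strand, repeat 42 to 49 bases past the start: tgggaccaGAAGTTTC

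Hspb8, Bag3 and the first element of Hspb1 share the letters of the repeat itself, with different bases around it. The 3-unit element of Hsph1, in which both searched motifs overlap, is of a kind found in 0.619% of the tested genes. A match is only a match of letters, and the search says nothing on binding in these retinas. Hspb8, with an element at its start site, was called higher. Hspb1, with 2 elements and a fold change of 1.66, fell just short of the threshold. Hspa1a, Hspa1b, Hsph1 and Bag3, also with elements, did not pass it either. A link between elements and fold changes was not tested.

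Hsf1 encodes the factor that binds these elements (chr15:76477445-76500972, 12 exons). Its levels were 12.8, 11.5 and 12.1 RPKM in sham replicates 1 to 3 and 14.6, 15.0 and 14.1 RPKM in ONC. With TMM the ONC samples, at 35.6 to 37.7 CPM (exon reads scaled by library size), all lay above the sham samples, at 30.5 to 35.1 CPM, but by only a small margin. Its log2 fold change was 0.14 (SE 0.09, adjusted p = 0.472, edgeR). Reads in its introns were 178, 185 and 202 in sham and 166, 183 and 225 in ONC, which is 24.4% and 20.4% of its reads in the groups. In all, 3 of 10 genes (Hspb1, Hspb8 and Hsf1) had all ONC samples above all sham samples, beside 11% of all genes tested.

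The inducible HSP70 genes Hspa1a and Hspa1b lie on chromosome 17 as single-exon genes (chr17:34969359-34972156 and chr17:34956429-34959238). Hspa1a stood at 21.7, 20.6 and 20.4 RPKM in sham and 27.1, 23.7 and 24.0 RPKM in ONC. Hspa1b stood at 18.98, 20.9 and 19.2 RPKM in sham and 22.9, 20.8 and 20.6 RPKM in ONC. For both genes ONC replicate 1 was the highest sample, and with TMM the groups overlapped.

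The log2 fold change of Hspa1a was 0.13 (SE 0.08, 95% interval -0.03 to 0.29, adjusted p = 0.395, edgeR) and that of Hspa1b 0.0015 (SE 0.08, 95% interval -0.16 to 0.16, adjusted p = 0.993). The upper bounds correspond to folds of 1.23 and 1.12 with TMM. The value of Hspa1a moved with the scaling and with 1 sample: with RPKM scaling it was 0.26 and called (SE 0.09, adjusted p = 0.0637, edgeR), the 1 of its 20 alternatives with a call, and without ONC replicate 1 it was 0.05 (adjusted p = 0.714). These genes are near-identical copies, and reads cannot be split between them with certainty. Their coding sequences differ at 11 of 1929 aligned positions (99.4% identical), and 67.8% of the stretches of 100 bases, the length of a read, are the same in both. Unique reads were 60.1% to 63.5% of the exon reads of Hspa1a and 61.7% to 65.99% of those of Hspa1b. Summed as 1 gene, an alternative added after the data were seen, their level was 149.99, 153 and 160 CPM in sham and 179, 152 and 156 CPM in ONC. The summed groups overlapped, with a log2 fold change of 0.07 (SE 0.07, adjusted p = 0.645, edgeR).

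The likeness goes on upstream. The 250 bases before each start site differ at 3 positions, which are in capitals in the following sequences (GRCm38.p6, minus strand), with the heat shock element in the part that is the same:
Hspa1a, chr17:34972157-34972406: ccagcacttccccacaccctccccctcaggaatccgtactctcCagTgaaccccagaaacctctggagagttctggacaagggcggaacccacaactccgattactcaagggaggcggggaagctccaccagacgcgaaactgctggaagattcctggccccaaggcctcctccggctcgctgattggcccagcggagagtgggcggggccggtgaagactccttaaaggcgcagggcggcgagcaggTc
Hspa1b, chr17:34959239-34959488: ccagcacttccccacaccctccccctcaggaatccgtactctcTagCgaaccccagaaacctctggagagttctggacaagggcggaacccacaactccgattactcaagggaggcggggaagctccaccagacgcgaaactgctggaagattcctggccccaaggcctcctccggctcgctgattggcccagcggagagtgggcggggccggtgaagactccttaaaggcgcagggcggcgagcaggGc

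Hspa1a took 53.2%, 49.6% and 51.4% of the exon reads of the pair in sham and 54.0%, 53.2% and 53.7% in ONC. The ONC shares lay together at the upper end, next to sham replicate 1. From unique reads alone the shares were 48.9% to 52.2% in sham and 52.6% to 53.2% in ONC.

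Hspa8 encodes the constitutive HSP70, which also uncoats clathrin vesicles (chr9:40801273-40805199). It stood at 499.7, 518 and 481 RPKM in sham and 551, 582 and 501 RPKM in ONC. ONC replicate 3 lay within the sham range and the groups overlapped with TMM. Its log2 fold change was 0.0027 (SE 0.06, 95% interval -0.11 to 0.12, adjusted p = 0.985, edgeR), at 24170 to 30478 exon reads per sample. Unique reads were 36.3% to 38.1% of them, the lowest share of the 10 genes, so its level depends on how reads that fit several places were placed.

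The HSP70 partners Hsph1 and Dnajb1 also overlapped between groups. Hsph1, the nucleotide exchange factor (chr5:149616845-149636315), stood at 18.1, 18.5 and 18.9 RPKM in sham and 21.3, 20.9 and 17.5 RPKM in ONC. Dnajb1, the HSP40 that loads clients on inducible HSP70 (chr8:83608175-83611903), stood at 22.3, 21.2 and 19.2 RPKM in sham and 23.8, 22.4 and 21.0 RPKM in ONC. In both genes ONC replicate 3 was the lowest of the ONC samples, and for Hsph1 it was the lowest of the 6.

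Their log2 fold changes were -0.02 each (SE 0.08 for both), with adjusted p = 0.939 for Hsph1 and 0.930 for Dnajb1 (edgeR). The 95% intervals were -0.19 to 0.15 and -0.18 to 0.14. The sign of both values turned with RPKM scaling, to 0.11 and 0.10, with neither called.

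Hsp90aa1, the inducible cytosolic HSP90 (chr12:110691036-110696395), was the highest of the 10 genes. It stood at 619, 622 and 565 RPKM in sham and 714, 742 and 655 RPKM in ONC, so the groups did not overlap in RPKM. With TMM the sham samples lay close together at 2321 to 2334 CPM, and the ONC samples at 2602, 2568 and 2329 CPM, so ONC replicate 3 fell among the sham samples. The log2 fold change was 0.10 (SE 0.05, 95% interval -0.01 to 0.21, adjusted p = 0.330, edgeR). With RPKM scaling it was 0.23 and passed the threshold (adjusted p = 0.0229), as it did with limma on RPKM, but with no other of the 19 alternatives. Unique reads were 44.4% to 45.5% of its exon reads.

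Bag3 (chr7:128523583-128546981), the lowest of the 10 genes, had 98, 119 and 97 exon reads in sham and 145, 127 and 103 in ONC. In RPKM these were 1.64, 1.91 and 1.53 against 2.21, 1.97 and 1.53, and the groups overlapped. Its log2 fold change of 0.05 had an SE of 0.21 and a 95% interval of -0.39 to 0.49 (adjusted p = 0.939, edgeR). That interval runs from 0.761 to 1.40 of the sham level. Without ONC replicate 1 the value was -0.10.

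**Figure D2:**
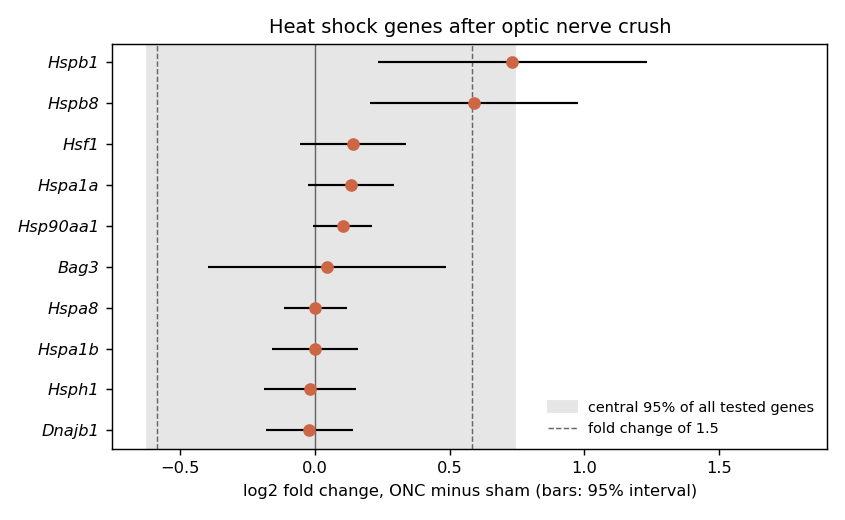
Log2 fold change of ONC over sham for the 10 genes (points) with 95% intervals (bars), from the edgeR fit with TMM; the grey band holds the central 95% of all 13670 genes tested and dashed lines mark a fold change of 1.5 in each direction. The intervals of 8 genes cover 0, and those of Hspb1 and Hspb8 lie above it.

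Hspb8 (chr5:116408495-116422864, 3 exons), whose protein works with BAG3, was the only gene of the 10 to pass the threshold, by a small margin. It had 113, 151 and 154 exon reads in sham and 202, 307 and 222 in ONC. In RPKM it stood at 2.71, 3.48 and 3.47 in sham and 4.41, 6.81 and 4.72 in ONC. The groups did not overlap, the ONC samples all being higher, with ONC replicate 2 well above the other ONC samples. The log2 fold change was 0.59 (SE 0.18, 95% interval 0.20 to 0.97, adjusted p = 0.0856, edgeR), which is a fold of 1.5045 and barely past the DEG threshold.

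The call for Hspb8 was lost when any sample other than ONC replicate 1 was left out. Without sham replicates 1, 2 or 3 the log2 fold change was 0.46, 0.62 and 0.69, with adjusted p of 0.272, 0.210 and 0.126 (edgeR). Without ONC replicate 2 it was 0.39 (adjusted p = 0.451), and without ONC replicate 3 it was 0.66 (adjusted p = 0.135). Without ONC replicate 1 it was 0.69 (adjusted p = 0.0160). The direction was upward in each of these fits. Over all 19 alternatives the adjusted p ran from 0.0151 to 0.451, and the gene was called in 13.

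Hspb1 (chr5:135887919-135889563, 3 exons) encodes HSP27, which also binds actin. It had 98, 56 and 64 exon reads in sham and 150, 128 and 143 in ONC. Its RPKM values were 4.72, 2.59 and 2.90 in sham and 6.56, 5.70 and 6.11 in ONC. The ONC samples were again all higher than the sham samples, but sham replicate 1 stood apart from the other sham samples. The log2 fold change was 0.73 (SE 0.24, 95% interval 0.23 to 1.23, adjusted p = 0.101, edgeR). Unique reads were 45.3% to 50.8% of its exon reads, and with them alone the adjusted p was 0.258 at the same log2 fold change of 0.73. Over 19 alternatives the adjusted p ran from 0.0247 to 0.902, with a call in 8.

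The sham sample in which Hspb1 was highest was also the one with lens genes at the ONC level. Without it the log2 fold change of Hspb1 was 1.01 (adjusted p = 0.0361, edgeR). With sham replicate 1 as the only sham sample, an alternative added after the data were seen in which that lone sample is assumed to vary like the ONC samples, it was 0.30 (adjusted p = 0.902). The same pair of fits gave 0.46 and 0.89 for Hspb8, which was lowest in sham replicate 1. Of the lens list 7 of 8 genes were tested (Lim2 was too low), 7 were higher in ONC and 0 were called by edgeR, with a median log2 fold change of 1.24. At an unadjusted p under 0.05, 5 of 7 were higher, beside 7.73% of all genes. At an adjusted p under 0.1 there was 1 with DESeq2, beside 2.59% of all genes, and 3 with limma, beside 7.15%. In that list Crybb2 reached 30.4 RPKM, whereas Mip, the lens fibre channel, was at 0.058 to 0.375 RPKM, and Crygd was at 0 in sham replicate 2. The part of lens RNA in the Hspb1 values was not tested.

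Microglia markers also moved with the groups, at a summed 13.9, 10.6 and 12.7 RPKM in sham and 19.7, 23.2 and 21.6 RPKM in ONC. Of the 8, 3 were called higher by edgeR (Itgam, C1qa and Cd68), beside 2.38% of all genes. ONC replicate 2 was the highest sample for the sum and for C1qa and Tyrobp, as it was for Hspb8. Itgam, Cx3cr1 and Csf1r were highest in ONC replicate 1, the lowest ONC sample for Hspb8. Cd68 and P2ry12 were highest in ONC replicate 3, and Aif1 in sham replicate 1. Among the sham samples the sum was highest in replicate 1 (13.9 RPKM), where Hspb8 was lowest (2.71 RPKM). The genes most like Hspb8 over the 6 samples, by Pearson r of log2 TMM CPM, were Lyz2, a lysozyme of macrophages and microglia (r = 0.995), Fam124a (r = 0.992) and Dcps, a decapping scavenger enzyme (r = 0.991). These are the closest of 13670 genes, and so high values are a description of 6 points that share their libraries. The part of microglia in the Hspb8 values was not tested. Of 8 Müller glia and astrocyte markers 0 were called by edgeR. At an unadjusted p under 0.05 in edgeR, 2 were higher (Vim and Gfap) and 1 lower (Glul), beside 7.73% and 8.99% of all genes. After adjustment DESeq2 called 1 higher and limma 2, beside 2.59% and 7.15%, and both called 0 lower.

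**Figure D3:**
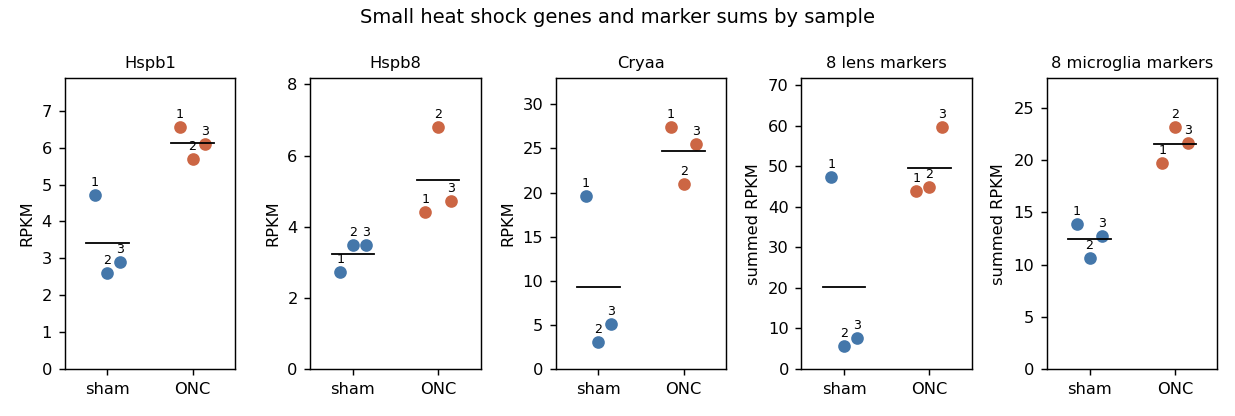
Level in each sample (numbers give the replicate, lines the group mean) of Hspb1, Hspb8 and Cryaa in RPKM and of the summed RPKM of 8 lens and 8 microglia markers, each axis from 0. Sham replicate 1 is the highest sham sample for Hspb1 (4.72 RPKM), Cryaa (19.6 RPKM) and the lens sum (47.4 RPKM), but the lowest for Hspb8 (2.71 RPKM).

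The wider chaperone system was followed in lists of other cytosolic, mitochondrial and endoplasmic reticulum (ER) chaperones, 71 genes of which 65 were tested. In it 2 rose and 2 fell, against backgrounds of 2.38% and 3.72%, and the median log2 fold change was 0.02, beside 0.01 for all genes. The genes that rose were Hspa9, the mitochondrial HSP70, and Cryaa, a small heat shock protein that is the main alpha-crystallin of the lens. The genes that fell were Hspa12a, a distant HSP70 relative, and Canx, the ER lectin calnexin.

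Hspa9 had 3695, 3427 and 3385 exon reads in sham and 5222, 4917 and 4989 in ONC, with no overlap of the groups. Its log2 fold change was 0.31 (SE 0.06, adjusted p = 0.00543, edgeR). The other mitochondrial chaperones Hspd1 (HSP60), Hspe1 (HSP10) and Trap1 did not pass the test, at -0.03, 0.06 and -0.02.

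Cryaa was the only other DEG, with 529, 86 and 147 exon reads in sham and 817, 615 and 778 in ONC. Its groups did not overlap in reads, but with TMM sham replicate 1 reached the ONC range. The log2 fold change was 1.32 (SE 0.36, adjusted p = 0.0469, edgeR), and it was 2.44 without sham replicate 1 and 0.26 with sham replicate 1 as the only sham sample. The call was lost without sham replicates 2 or 3 or ONC replicate 3 (adjusted p = 0.236, 0.243 and 0.124). Over the sham samples its level was high where the lens marker sum was high. Its relative Cryab, at 21.2 and 25.3 RPKM in the groups, had a log2 fold change of 0.14 (adjusted p = 0.558).

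Hspa12a had 4372, 5135 and 4599 exon reads in sham and 4582, 4339 and 4532 in ONC, which with TMM put the ONC samples below the sham samples. Its log2 fold change was -0.28 (SE 0.06, adjusted p = 0.0103, edgeR), and without sham replicate 2 it was -0.24 and not called (adjusted p = 0.112). Canx had a log2 fold change of -0.21 (SE 0.06, adjusted p = 0.0778, edgeR), also with no overlap, and the call held without ONC replicate 1 but was lost without any other sample. With RPKM scaling 0 genes of these lists were called lower and 11 of 65 higher, beside 1.63% and 11% of all genes with that scaling.

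For the counts by family, the shares of all genes were 2.38% called higher and 3.72% lower in edgeR, and 7.15% called higher by limma. At an unadjusted p under 0.05 in edgeR they were 7.73% higher and 8.99% lower, and 52.3% had a positive value. The other small heat shock proteins had 1 of 5 tested genes called higher (Cryaa), with a median log2 fold change of 0.14. Of the other HSP70 and HSP110 genes, 1 of 6 was lower, and 5 of 6 had negative values, with a median of -0.15. Of 8 other HSP40 genes 0 were called by edgeR or DESeq2 and 1 by limma, and the largest value was 0.22 for Dnajb5 (adjusted p = 0.236, edgeR), the 1 gene with an unadjusted p under 0.05. Of 12 genes for HSP90 and its cochaperones 0 were called by edgeR, DESeq2 or limma, with 0 at an unadjusted p under 0.05, and Hsp90ab1, the constitutive cytosolic HSP90, had a value of -0.05.

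The BAG and exchange factor list, with the ubiquitin ligase CHIP, had 0 of 7 called, with 1 at an unadjusted p under 0.05 (Bag4), and the remaining heat shock factors with their regulator had 0 of 3, with 0. The 7 tested subunits of TRiC, the chaperonin that folds actin and tubulin, had values from 0.03 to 0.16, with 0 called. Of them 7 of 7 were positive, beside 52.3% of all genes. At an unadjusted p under 0.05 in edgeR 1 was higher (Cct4), beside 7.73%. In these 3 lists DESeq2 and limma also called 0. Of 13 ER chaperones 1 fell (Canx) and 0 rose in edgeR or DESeq2, while limma called 1 higher. Hspa5 (BiP), whose transcript rises when unfolded protein accumulates in the ER, had a value of 0.12 (adjusted p = 0.369, edgeR), and Hsp90b1 one of 0.08.

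**Figure D4:**
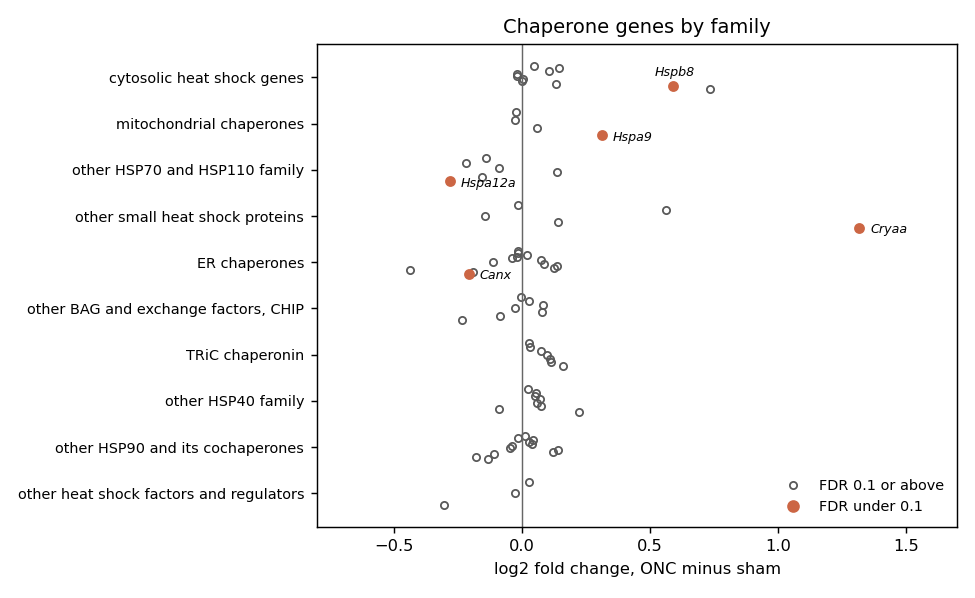
Log2 fold change of ONC over sham (TMM) for the 10 genes in the top row and for the 65 tested genes of the wider chaperone lists, by family; filled orange points are genes with an adjusted p under 0.1, open points the others. Most genes lie within a narrow band around 0, and the named points are Hspb8, Hspa9, Cryaa, Hspa12a and Canx.

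The ONC samples also differed among themselves. With TMM, ONC replicate 1 was the highest ONC sample for 8 of 10 genes and ONC replicate 2 for the remaining 2 (Hspb8 and Hspa8), while ONC replicate 3 was the lowest for 6. No share of all genes is at hand for these orders. Over all genes, ONC replicate 1 differed from ONC replicates 2 and 3 with a chi-square per degree of freedom of 13.7 and 10.8. Between ONC replicates 2 and 3 it was 4.54. Where values are near 0, as for Hspa1b, Hspa8, Hsph1 and Dnajb1, leaving out 1 sample was enough to turn the sign.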

How the data were processed

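Total RNA of pooled whole retinas was sequenced as paired-end reads of 100 bases, and the authors mapped them with CLC Genomics Workbench, allowing 2 mismatches. For each sample the authors deposited counts of exon and gene reads, all and unique, with an intact pair counted as 1, and RPKM values computed from the total exon reads and all reads on genes. The paper names mm9, but the positions in the files match GRCm38, and positions are given as in the files. Promoter sequences are from RefSeq (GRCm38.p6), and the coding sequences of Hspa1a and Hspa1b from GENCODE M1 transcripts.

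Groups and replicate numbers came from the sample labels, which call ONC "NC". The 13670 genes whose mean RPKM passed 0.3 in sham, ONC or both were tested. Total exon reads of 3 ONC and 3 sham samples were compared with edgeR 4.0.16 (TMM, glmQLFit, glmQLFTest, condition only) in R 4.3.3, with Benjamini-Hochberg adjustment over all of these. The SE is the size of the log2 fold change over the square root of F. The biological coefficient of variation was 9.17% and TMM factors were 0.980 to 1.02. Replicates differed by more than counting noise in each pair (chi-square per degree of freedom 4.54 to 13.7), so none were merged. Alternatives used DESeq2 1.42.0, limma 3.58.1 and the settings named in the closing section, and Python 3.11.15 was used for the rest. Counts carry no molecular identifiers. The intervals rest on the spread between pools, with the estimate for each gene moderated by those of all tested genes.

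The 10 genes and the lists were chosen with earlier results of these data known. The genes named are the 10, the listed chaperones with an adjusted p under 0.1, the 3 genes most like the one with the smallest p, and markers. Other chaperones given as examples (Hspd1, Hspe1, Trap1, Cryab, Dnajb5, Bag4, Cct4, Hsp90ab1, Hspa5, Hsp90b1) and single markers were picked after their values were seen.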

Additional observations from a re-analysis of the deposited data

How the results depend on the processing

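Among the 10 genes, 0 were called lower under every alternative run. The count called higher (1) became 4 with RPKM scaling (Hspb1, Hspb8, Hspa1a and Hsp90aa1, beside 11% of all genes), 3 with limma on log2(RPKM + 0.1) or log2(RPKM + 1) (beside 7.15% and 7.40%), 2 with the sum of exon reads in place of TMM, with the DESeq2 Wald test and with no filter on low values (beside 2.92%, 2.59% and 2.74%), and 0 at an adjusted p under 0.05 and with sham replicate 1 alone against ONC. The count of DEGs (1) became 2 with RPKM scaling, the sum of exon reads, limma on log2(RPKM + 0.1) and no filter. It became 0 with DESeq2 size factors, edgeR's own filter and unique reads. Over all genes and both directions, DEGs numbered 350, 231, 282 and 297 in the former settings and 224, 220 and 222 in the latter. In the main fit 113 of all genes were DEGs upward and 114 downward. Leaving out 1 sample gave 0 to 1 for both counts. In the wider lists, the 2 called higher became 11 with RPKM scaling, 4 and 5 with limma, 1 with the DESeq2 Wald test or gene reads and 0 with sham replicate 1 alone, and 1 to 3 without 1 sample. The 2 called lower became 0 with RPKM scaling, limma and sham replicate 1 alone, 1 with gene reads, and 0 to 8 without 1 sample, 8 of 65 being without ONC replicate 1, where 9.23% of all genes were called lower, against 3.72% with all samples. The 1 DEG (Cryaa) became 0 with the DESeq2 Wald test, gene reads and sham replicate 1 alone, and 0 to 1 without 1 sample. RPKM scaling raises the median of all genes to 0.13; the other causes were not tested.

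Signs turned only in genes near 0, none called. Hspa1b went to -0.0034 with DESeq2 size factors and with its Wald test, -0.0026 with a mean RPKM above 1, -0.0036 with edgeR's filter and -0.0005 with unique reads; Hspa8, in the same order, to -0.0022, -0.0022, -0.0014, -0.0024 and -0.0115. Hsph1 went to 0.1061 with RPKM scaling, 0.0064 with the sum of exon reads, 0.1006 and 0.0963 with limma, 0.0316 with gene reads and 0.0578 with sham replicate 1 alone; Dnajb1 to 0.1001, 0.0040, 0.1004, 0.0964 and 0.0358 in the first 5 of these. Without 1 sample the values were -0.0690 to 0.0363 for Hspa1b, -0.0323 to 0.0537 for Hspa8, -0.0897 to 0.0611 for Hsph1, -0.0839 to 0.0190 for Dnajb1 and -0.0956 to 0.1767 for Bag3.

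Same-numbered samples did not deviate together (correlations -0.047, -0.033 and 0.003), and 0 of 3 ONC samples correlated best with their own number. The check gave no sign of pairing by number, but with 3 samples per group it cannot settle the question. With the replicate block 2 of the 10 genes were called higher, Hspb8 and Hspb1 (adjusted p = 0.0790 and 0.0804, edgeR), beside 2.06% of all genes. In the wider lists 1 chaperone was called lower with the block, beside 3.27% of all genes, and Hspa1b was at -0.0001.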
